A study of Bos taurus with 48 samples.

Results

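The miR-148 and miR-152 family was examined in miRNA-seq data of cow liver and mammary gland. Its members were taken by name from the deposited table of normalized read counts, with any arm or copy suffix allowed. This gave 3 of the 524 listed miRNAs, namely bta-miR-148a, bta-miR-148b and bta-miR-152, each with a single entry. The samples were liver, mammary parenchyma (the part of the gland that holds the epithelial ducts) and the mammary fat pad around it. Each tissue was collected after slaughter from cows in 3 feeding groups, which were milk replacer ad libitum, a restricted amount of milk replacer, and control. Liver contributed 6 ad libitum, 6 restricted and 5 control libraries. Parenchyma contributed 6, 6 and 3, and the fat pad 6, 6 and 4. The labels give neither the age of the animals nor the diet of the control group. The same sample numbers recur across tissues, but the labels do not say that a number marks an animal. The p-values below thus rest on the spread between libraries, which may be partly technical.

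miRNAs pair with messenger RNAs mainly through a short seed near the 5′ end, and the members of this family carry the same seed, so they are expected to recognise overlapping sets of targets. In human and mouse cells the family is known to repress DNA methyltransferases, and miR-148a also lowers the LDL receptor and the cholesterol exporter ABCA1 in hepatocytes. miR-148a is among the most abundant miRNAs of cow milk. In the RefSeq annotation of assembly ARS-UCD2.0, all 3 symbols were found. MIR148B lies inside COPZ1 and MIR152 inside COPZ2, paralogous genes for a zeta subunit of the COPI vesicle coat, while MIR148A lies in no protein-coding gene. The surroundings are also related: NFE2L3, CBX3, SNX10 and SKAP2 neighbour MIR148A, NFE2L1, CBX1, SNX11 and SKAP1 neighbour MIR152, and NFE2 and CBX5 neighbour MIR148B.

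The depth, given as the estimated number of reads assigned to miRNAs, was between 826776 and 5146724 per liver library, between 6193678 and 11291532 per parenchyma library and between 2123962 and 9522666 per fat pad library. The least covered member in any library was miR-148b in liver, with 1194 estimated reads, so counting error was small beside the spread between samples. Hepatocyte miRNAs (miR-122, miR-192, miR-194 and miR-885) summed to between 884709 and 1630813 in liver and to at most 11903 in any mammary sample. The summed value of 10 epithelial miRNAs was 61371 to 110903 in parenchyma of milk replacer fed cows, 92.5 to 421 in control parenchyma, and 17.4 to 436 in fat pad of milk replacer fed cows. miR-429 and miR-375 were listed at 0 in all 3 control parenchyma samples, so these samples went against their tissue label. Their low epithelial miRNAs were known from earlier results of these data. For this reason the control samples of all 3 tissues were kept out of the main comparisons between tissues. In bulk tissue, fewer cells of a type and less RNA per cell cannot be told apart.

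miR-148a was the most abundant miRNA of the liver and carried almost the whole of the family in every tissue. In the 12 liver samples of milk replacer fed cows its share of all listed values averaged 15.4% ± 3.29 (SD), ahead of the hepatocyte miRNA miR-122 (10.4%) and of miR-192 (9.87%). Its share was 8.47% ± 1.51 in 12 parenchyma samples, where it ranked 2nd behind miR-99a-5p (17.7%). In 12 fat pad samples it was 6.14% ± 0.818 and ranked 5th, behind miR-99a-5p (16.8%), the endothelial miR-126-3p (7.56%), miR-26a (7.05%) and miR-143 (6.90%), which marks smooth muscle and fibroblasts. Counting every feeding group, miR-148a was the top miRNA in 10 of 17 liver samples and first or second in all 17. It was first or second in 14 of 15 parenchyma samples and stood between the 3rd and 5th place in the 16 fat pad samples.

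**Figure D1:**
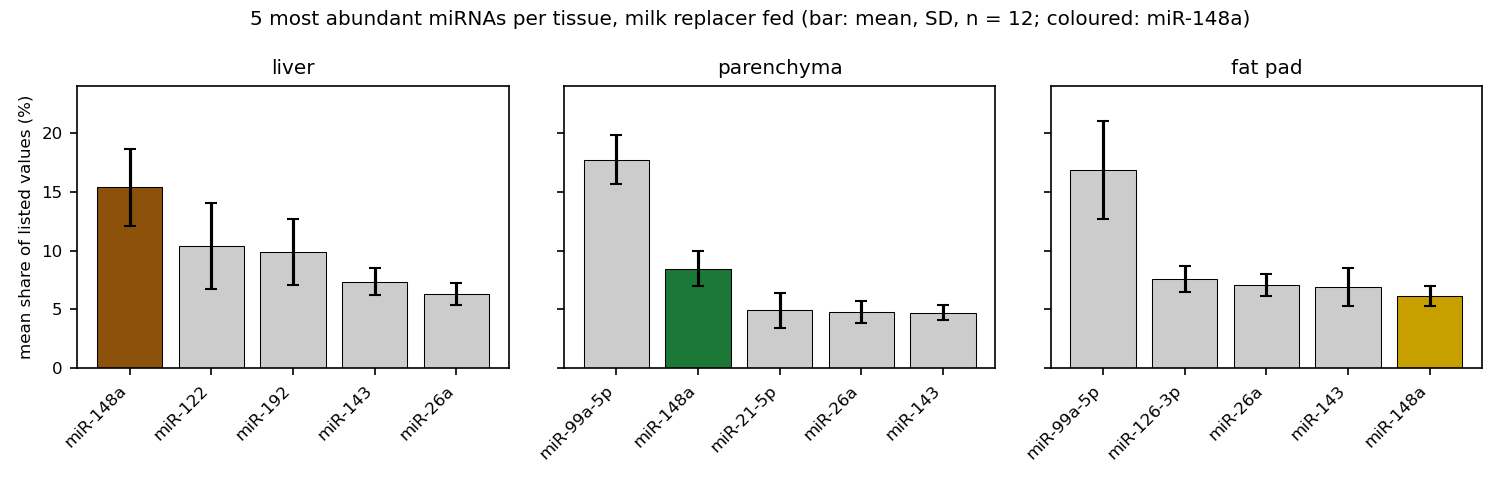
Mean share of all listed values (%, bars, with the SD over 12 samples) of the 5 most abundant miRNAs in liver, parenchyma and fat pad of milk replacer fed cows. miR-148a is coloured and stands 1st in liver (15.4%), 2nd in parenchyma (8.47%) and 5th in fat pad (6.14%).

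The other members were far less abundant, and their order differed between tissues. miR-152 took 0.424% ± 0.142 of the listed values in liver (35th by mean share), 0.197% ± 0.0695 in parenchyma (64th) and 0.346% ± 0.0460 in fat pad (42nd). miR-148b took 0.183% ± 0.0626 in liver (56th), 0.256% ± 0.0417 in parenchyma (56th) and 0.117% ± 0.0136 in fat pad (65th). Thus miR-152 was the second member in liver and fat pad, and miR-148b was the second member in parenchyma. The whole family made up 16.0% ± 3.23 of the liver, 8.92% ± 1.54 of the parenchyma and 6.61% ± 0.855 of the fat pad values (n = 12 each). miR-148a accounted for 96.0% ± 1.60 of the family in liver, 94.8% ± 0.812 in parenchyma and 93.0% ± 0.650 in fat pad.

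On the deposited scale, the level of miR-148a separated liver from both mammary tissues in milk replacer fed cows. In milk replacer fed cows the normalized read count ranged from 531100 to 1711147 in liver (median 868064), against 201781 to 405705 in parenchyma (median 262645). In fat pad it ranged from 204944 to 356991 (median 275158). All 12 liver samples lay above all 12 parenchyma and all 12 fat pad samples. Of all miRNAs tested, 12.8% lay as completely above in liver against parenchyma and 19.0% in liver against fat pad. The log2 fold change, fitted with limma over all miRNAs, was 1.59 for liver against parenchyma (SE 0.15, adjusted p = 1.08e-09) and 1.59 for liver against fat pad (SE 0.14, adjusted p = 2.17e-10). Between parenchyma and fat pad the groups overlapped (log2 fold change -0.01, 95% interval -0.26 to 0.25, adjusted p = 0.967).

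miR-152 was low in parenchyma compared with both other tissues. It ranged from 12848 to 39037 in liver (median 21945), against 4714 to 14357 in parenchyma (median 6045), and from 10674 to 20282 in fat pad (median 15950). A single parenchyma sample, ad libitum replicate 7 at 14357, stood within the range of liver and fat pad. The other 11 parenchyma samples were at or below 7695 and under every liver and fat pad sample. The log2 fold change was 1.83 for liver against parenchyma (SE 0.20, adjusted p = 7.00e-09), and -1.32 for parenchyma against fat pad (SE 0.14, adjusted p = 8.49e-09). Liver stood above fat pad by a smaller margin (0.51, SE 0.17, adjusted p = 0.00735), with 8 of 12 liver samples above the whole fat pad. Leaving that parenchyma sample out changed no call between tissues. Its summed erythroid miRNAs (miR-144, miR-451 and miR-486) were 2297, against 590 to 1706 in the other milk replacer fed parenchyma samples. Its epithelial (74689) and adipocyte-linked sums (5297) lay within the range of the others. The part of these markers in its miR-152 level was not tested.

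miR-148b was low in fat pad compared with both other tissues. It ranged from 7399 to 15686 in liver (median 9003), against 6189 to 11234 in parenchyma (median 8615) and 3906 to 6786 in fat pad (median 5367). All 12 liver samples and 11 of 12 parenchyma samples exceeded every fat pad sample. The log2 fold change was 0.88 for liver against fat pad (SE 0.11, adjusted p = 1.79e-07) and 0.67 for parenchyma against fat pad (SE 0.10, adjusted p = 9.10e-07). Liver and parenchyma overlapped (0.22, 95% interval -0.05 to 0.48, adjusted p = 0.128).

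**Figure D2:**
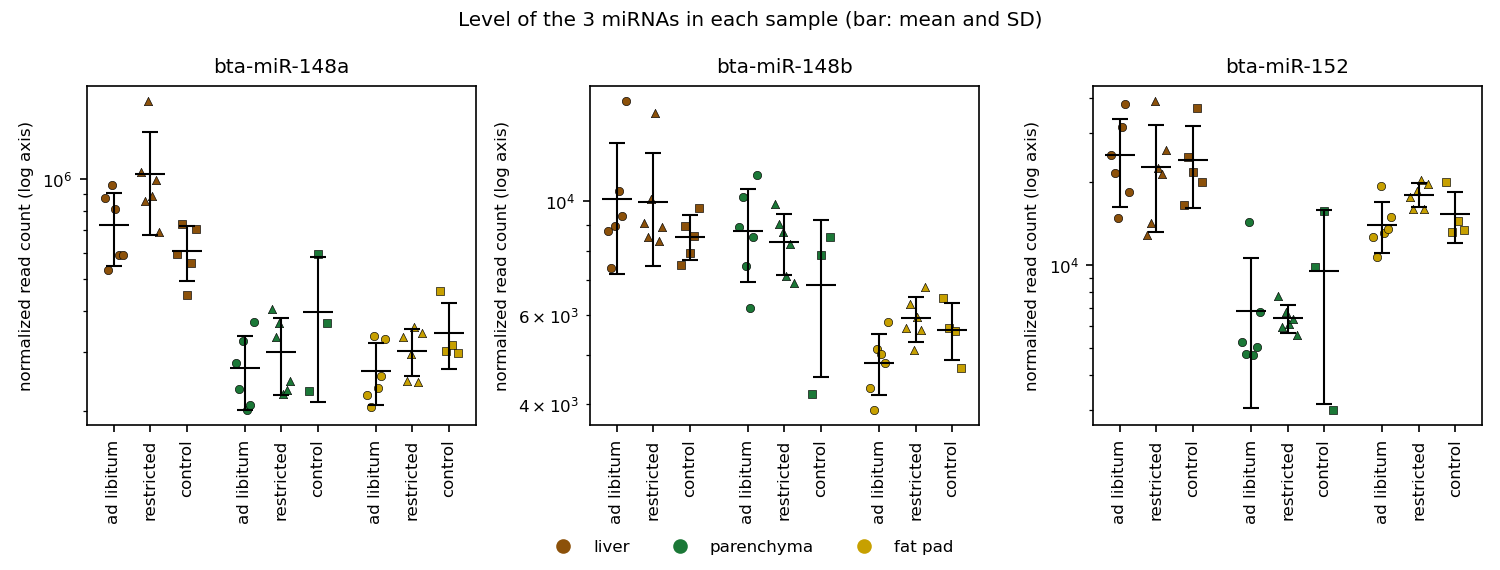
Normalized read count (log axis) of miR-148a, miR-148b and miR-152 in each sample, by tissue and feeding group (bars: group mean, SD). Among milk replacer fed cows, miR-148a in liver (531100 to 1711147) lies above both mammary tissues, and miR-148b has its lowest median in fat pad. In the same cows miR-152 is lowest in parenchyma except for 1 ad libitum sample at 14357. Control parenchyma departs from this, with miR-148a at 594471 and miR-152 at 15696 in replicate 2, and miR-148b at 4193 in replicate 1.

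In liver against parenchyma 2 of the 3 members passed the threshold, both higher, where 76.7% of all miRNAs tested passed (30.9% higher and 45.8% lower). In liver against fat pad all 3 were higher, where 76.8% passed (36.4% higher and 40.4% lower). In parenchyma against fat pad 1 was higher and 1 lower, where 82.4% passed (49.7% higher and 32.7% lower). Passing was thus common among all miRNAs between these tissues. Over all tested miRNAs the median fold change on the log2 scale was -0.39 for liver against parenchyma, -0.20 for liver against fat pad and 0.37 for parenchyma against fat pad.

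The scale of the values mattered for part of these results. Over all samples the sum of the listed values had a median of 5346671 in liver, 3508592 in parenchyma and 4782680 in fat pad. When every sample was rescaled to an equal sum, these medians moved to -0.95, -0.46 and 0.70 in the same order. The split of calls became 59 higher and 174 lower for liver against parenchyma (106 and 157 on the deposited scale), and 171 higher and 68 lower for parenchyma against fat pad (167 and 110). Among the feeding comparisons it became 37 and 14 for ad libitum against restricted fat pad (29 and 21 as deposited). For milk replacer against control it became 107 and 33 in parenchyma (102 and 52), 21 and 5 in fat pad (22 and 11), and 1 and 22 in liver (5 and 16). miR-148a stayed higher in liver than in parenchyma (0.85, adjusted p = 8.76e-08 by limma) and than in fat pad (1.30, adjusted p = 1.06e-11). miR-152 likewise stayed higher in liver than in parenchyma (1.08, adjusted p = 3.92e-06) and lower in parenchyma than in fat pad (-0.86, adjusted p = 8.10e-07). Other calls changed: on the rescaled values miR-148b was lower in liver than in parenchyma (-0.53, adjusted p = 0.00192) and miR-148a was higher in parenchyma than in fat pad (0.45, adjusted p = 6.28e-05). The excess of miR-152 in liver over fat pad shrank to 0.23 (adjusted p = 0.150), and it was 0.24 (adjusted p = 0.366) with the restricted samples alone.

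Shares of the listed values are the rescaled values given in percent, so their order of the tissues is no separate evidence. They were tested by permutation (two-sided, 100000 resamples, adjusted over 27 tests). The share of miR-148a was higher in liver than in parenchyma by 6.90 percentage points and than in fat pad by 9.23 points, and higher in parenchyma than in fat pad by 2.33 points (adjusted p = 0.00027 in each). Unlike the levels, its shares in liver and parenchyma overlapped, with 10.4% in ad libitum liver replicate 6 and 11.0% in restricted parenchyma replicate 4. The share of miR-148b was highest in parenchyma. It exceeded that of fat pad by 0.140 points (adjusted p = 0.00027), while liver minus parenchyma was -0.0729 points (adjusted p = 0.0119). That last difference was no longer past the threshold when miR-122 was left out of the sum (adjusted p = 0.0726). For miR-152, liver exceeded parenchyma by 0.227 points (adjusted p = 0.000926), and parenchyma minus fat pad was -0.149 points (adjusted p = 0.00027). The liver and fat pad shares of miR-152 differed by 0.0776 points (adjusted p = 0.181; 0.0391 with miR-122 left out of the sum).

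**Figure D3:**
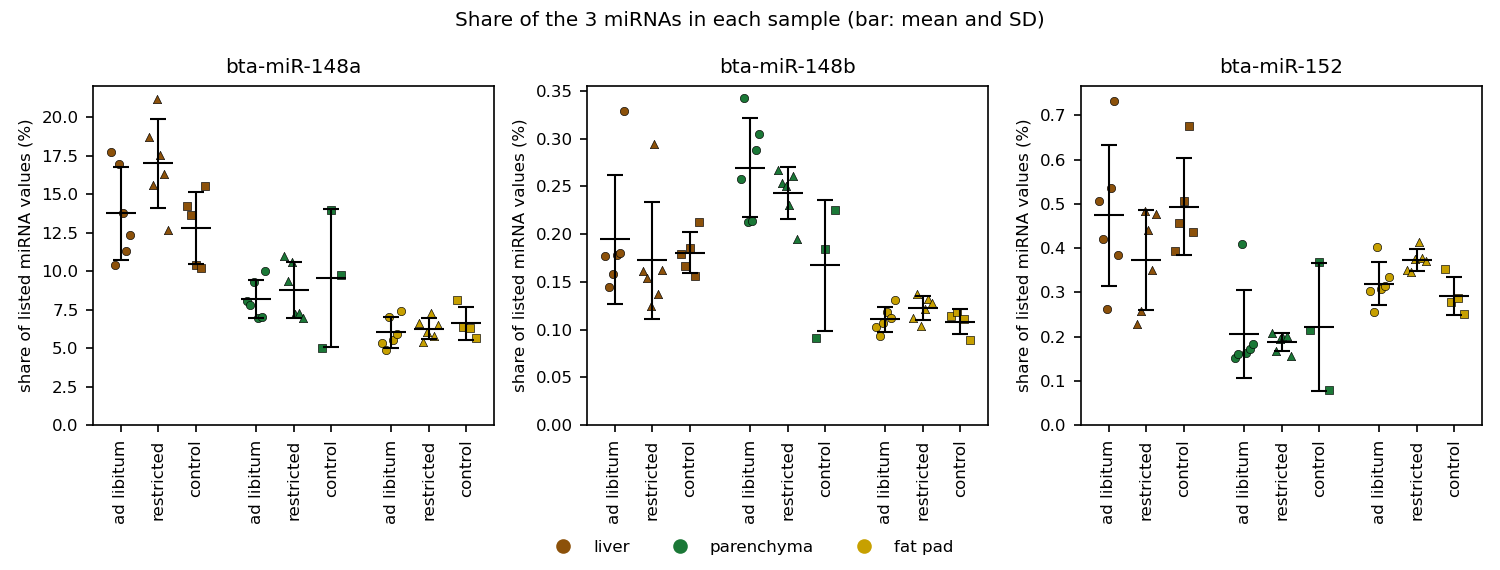
Share of all listed values (%) of miR-148a, miR-148b and miR-152 in each sample, by tissue and feeding group (bars: group mean, SD). In milk replacer fed cows miR-148a has its highest mean in liver (15.4%), then parenchyma (8.47%) and fat pad (6.14%), while miR-148b has its highest mean in parenchyma (0.256%).

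Ratios between members are free of the scale of each library, and most of them differed between tissues. The median ratio of miR-148a to miR-148b was 89.0 in liver, 32.8 in parenchyma and 52.6 in fat pad. The log2 of this ratio averaged 6.42 ± 0.57 in liver, 5.04 ± 0.30 in parenchyma and 5.72 ± 0.21 in fat pad (SD, n = 12 each). Each pair of tissues differed by permutation test, with adjusted p = 0.000135 for liver against parenchyma, 0.00201 for liver against fat pad and 0.00018 for parenchyma against fat pad.

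The ratio of miR-152 to miR-148b set parenchyma apart. miR-152 exceeded miR-148b in all 12 liver samples (ratio 1.17 to 4.08, median 2.70). In parenchyma the ratio was 0.467 to 0.855 in 11 samples and 1.92 in ad libitum replicate 7 (median 0.768). In fat pad it was 2.52 to 3.76 (median 2.87), above every parenchyma sample. The log2 ratio differed by 1.61 for liver against parenchyma and by -1.98 for parenchyma against fat pad (adjusted p = 0.000135 in both, permutation test). Liver and fat pad differed by -0.37 (adjusted p = 0.131).

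The ratio of miR-148a to miR-152 was lowest and most uniform in fat pad. Its median was 37.4 in liver (15.4 to 81.8), 46.5 in parenchyma (22.7 to 55.8) and 17.6 in fat pad (15.3 to 22.1). The log2 ratio was higher in liver than in fat pad by 1.07 (adjusted p = 0.00018) and higher in parenchyma than in fat pad by 1.31 with no overlap (adjusted p = 0.000135). Liver and parenchyma differed by -0.23 (adjusted p = 0.421).

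**Figure D4:**
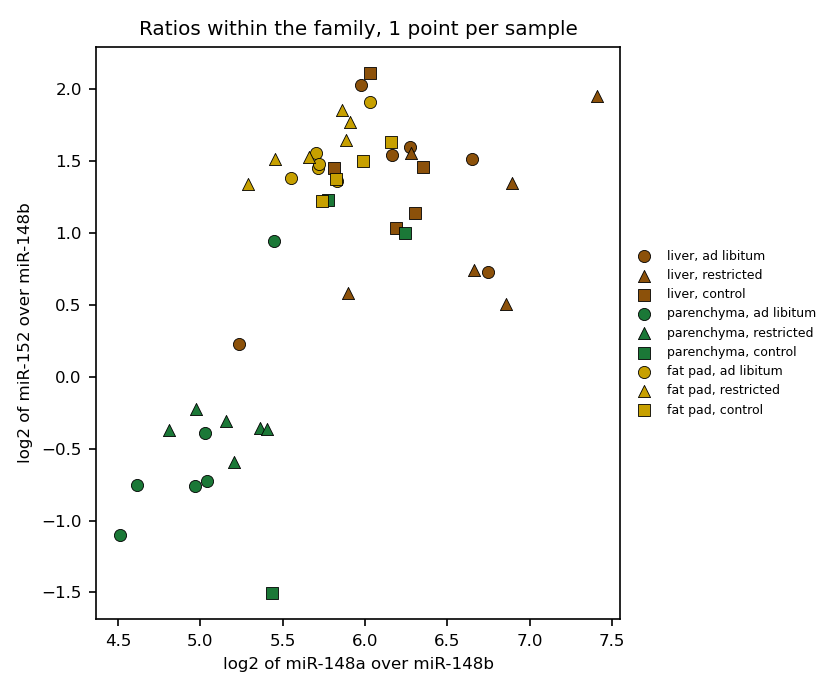
log2 of the ratio of miR-152 to miR-148b against log2 of the ratio of miR-148a to miR-148b, with 1 point per sample, coloured by tissue and shaped by feeding group. The milk replacer fed parenchyma samples lie below 0 on the vertical axis except for ad libitum replicate 7. Fat pad samples lie close together (means 5.72 and 1.57 in milk replacer fed cows). Liver samples are spread widely, most of them to the right but some within the horizontal range of the mammary samples.

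Within a tissue the members were most closely correlated in fat pad. Across its 12 milk replacer fed samples the log2 values of miR-148a and miR-152 correlated with Pearson r = 0.870 (permutation p adjusted over 9 relations = 0.00396) and Spearman rho = 0.902 (0.00189 likewise). Dropping the 2 samples most distant from the median of the x axis left r at 0.785. For miR-152 and miR-148b r was 0.756 (adjusted p = 0.0192; rho = 0.720, adjusted p = 0.0265; 0.591 without 2 samples), and for miR-148a and miR-148b it was 0.679 (adjusted p = 0.0448; rho = 0.713, adjusted p = 0.0265; 0.512 without 2 samples). In liver the 3 correlations lay between -0.03 and 0.06. Without the 2 most distant samples they were -0.39 for miR-148a and miR-148b, -0.56 for miR-148a and miR-152 and 0.098 for miR-152 and miR-148b. In parenchyma Pearson r was 0.572 for miR-148a and miR-148b (adjusted p = 0.0967) and 0.565 for miR-148a and miR-152 (adjusted p = 0.0743), while their Spearman rho passed (0.650, adjusted p = 0.0454, and 0.720, adjusted p = 0.0265). Without the 2 most distant samples these r were 0.342 and 0.563. For miR-152 and miR-148b in parenchyma r was 0.0072 (adjusted p = 0.982). Whether the correlations differed between tissues was not tested. All samples of a tissue share its 2 feeding groups, and no correlation passed on rescaled values, where the fat pad values were 0.719, 0.469 and 0.341 in the order given above (adjusted p = 0.0733, 0.494 and 0.494).

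Feeding ad libitum against restricted moved no member past the threshold in any tissue. In liver, miR-148a was 877159, 531100, 958760, 809725, 589024 and 589476 in ad libitum samples 3, 6, 7, 9, 11 and 15. It was 1051435, 858969, 1711147, 887189, 992584 and 691702 in restricted samples 4, 5, 8, 10, 13 and 16. The ranges overlapped, with 3 ad libitum samples below all restricted ones. The log2 fold change was -0.48 (SE 0.22, 95% interval -0.94 to -0.02), with an unadjusted p of 0.0398 and an adjusted p of 0.733 in limma, where 0.324% of all miRNAs passed (all of them lower). The share of miR-148a was 13.7% ± 3.01 in ad libitum and 17.0% ± 2.90 in restricted liver (exact permutation p = 0.0931, adjusted p = 0.193). For miR-148b and miR-152 in liver the log2 fold changes were 0.01 (95% interval -0.39 to 0.41) and 0.17 (-0.41 to 0.74).

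In fat pad all 3 members had lower mean levels in ad libitum than in restricted cows on the deposited scale. The sum of the listed values was 4179653 to 4799199 in ad libitum and 4226261 to 5289796 in restricted samples. The 2 groups overlapped in level and also in share. In ad libitum and restricted samples the shares were 4.90% to 7.42% and 5.37% to 7.30% for miR-148a, and 0.0935% to 0.131% and 0.104% to 0.137% for miR-148b. For miR-152 they were 0.255% to 0.403% and 0.346% to 0.415%. miR-152 was 12654, 10674, 19349, 13041, 13446 and 14898 in ad libitum samples 3, 6, 7, 9, 11 and 15, against 17616, 15919, 18485, 20282, 15980 and 19579 in restricted samples 4, 5, 8, 10, 13 and 16. All ad libitum samples but replicate 7 lay below every restricted sample, in level and in share. Its log2 fold change was -0.38 (SE 0.14, adjusted p = 0.0658 by limma), and it was -0.48 (adjusted p = 0.0138) without that replicate and -0.38 (adjusted p = 0.0378) without control replicate 2, which enters the fit through the spread. miR-148b gave -0.29 (SE 0.11, adjusted p = 0.0741, and 0.04996 without ad libitum replicate 15), with 4 of 6 ad libitum samples below all restricted ones. miR-148a gave -0.21 (SE 0.15, adjusted p = 0.354). In this comparison 16.6% of all tested miRNAs passed (9.63% higher and 6.98% lower). The adipocyte-linked sum (miR-378, miR-193a, miR-193b and miR-365) was 60600 to 86919 in ad libitum and 31388 to 68822 in restricted fat pad. The immune cell sum (miR-142-5p, miR-150, miR-155, miR-223 and miR-146a) was 2795 to 3018 in ad libitum and 3147 to 4195 in restricted fat pad, with no overlap. Taken singly, 0 of these 5 miRNAs passed, and 1 of the 4 adipocyte-linked miRNAs passed, being higher in ad libitum. The part of these markers in the members' values was not tested.

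In parenchyma no member passed between ad libitum and restricted cows, and limma called none of the 339 miRNAs tested, with none at an unadjusted p under 0.05 either. The log2 fold changes were -0.16 for miR-148a (95% interval -0.65 to 0.33), 0.06 for miR-148b (-0.41 to 0.52) and -0.04 for miR-152 (-0.78 to 0.70). The log2 ratio of miR-152 to miR-148b averaged -0.46 ± 0.73 in ad libitum and -0.37 ± 0.12 in restricted parenchyma (exact permutation, adjusted p = 0.818). Without ad libitum replicate 7, an alternative chosen after seeing the data, this difference became -0.38 with adjusted p = 0.0237. The other feeding ratios of ad libitum against restricted did not pass, with adjusted p of at least 0.105.

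Milk replacer fed cows were then set against controls. In liver, miR-148a had a median of 868064 in milk replacer fed cows (531100 to 1711147), against 594555, 728899, 445899, 557001 and 707398 in controls 1, 2, 18, 19 and 21. Of 12 milk replacer fed samples, 8 lay above all controls. The log2 fold change was 0.49 (SE 0.20, 95% interval 0.06 to 0.91, adjusted p = 0.186 by limma), and 6.8% of all tested miRNAs passed (1.62% higher and 5.18% lower). miR-148b gave 0.20 (adjusted p = 0.566) and miR-152 gave -0.04 (adjusted p = 0.937). No share or ratio of a member passed in liver.

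In fat pad, the balance between miR-148a and miR-152 differed between milk replacer fed and control cows, while their single levels did not pass. The ratio of miR-148a to miR-152 was 15.3 to 22.1 in milk replacer fed cows (median 17.6) and 21.9 to 23.1 in the 4 controls (median 22.7). The log2 ratio averaged 4.15 ± 0.15 in milk replacer fed and 4.50 ± 0.03 in control fat pad, a difference of -0.35 (exact permutation p = 0.0022, adjusted p = 0.00742). Leaving out any control sample gave differences from -0.36 to -0.34 with adjusted p of at most 0.0264. The level of miR-148a had a log2 fold change of -0.28 (95% interval -0.60 to 0.04, adjusted p = 0.212), miR-152 of 0.07 (-0.22 to 0.35) and miR-148b of -0.07 (-0.30 to 0.16), where 11% of all tested miRNAs passed (7.31% higher and 3.65% lower). The control level of miR-148a included 1 high sample, replicate 2 at 460661, against 302562, 315026 and 299781 in replicates 18, 19 and 21. The title of replicate 2 ends in PAD, where those of the other fat pad samples end in TP. The adipocyte-linked sum was 31388 to 86919 in milk replacer fed and 35709 to 111541 in control fat pad, and the stromal sum (miR-143, miR-145, miR-199a-3p and miR-214) 414656 to 702879 and 543489 to 819285 in the same groups. The immune cell sum was 2795 to 4195 and 3451 to 4196. Their part in the ratio was not tested.

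The control parenchyma samples disagreed among themselves in every member. Their titles differ too, ending in PAR for replicates 1 and 2 and in PPP, as in most other parenchyma samples, for replicate 18. The part of this difference in the values was not tested. miR-148a was 229489, 594471 and 368549 in control replicates 1, 2 and 18, miR-148b was 4193, 7851 and 8507, and miR-152 was 9829, 15696 and 2999. The values of miR-152 in milk replacer fed parenchyma (4714 to 14357) lay within the control range. The log2 fold changes of milk replacer against control were -0.41 for miR-148a (adjusted p = 0.215), 0.36 for miR-148b (adjusted p = 0.244) and -0.29 for miR-152 (adjusted p = 0.571), where 45.4% of all tested miRNAs passed (30.1% higher and 15.3% lower). These rested on single controls. Without replicate 1 miR-148a gave -0.75 (adjusted p = 0.0275), and miR-152 gave -0.98 without replicate 18 (adjusted p = 0.0239) and 0.22 without replicate 2 (adjusted p = 0.689). On rescaled values miR-148b was 0.70 higher in milk replacer fed parenchyma (adjusted p = 0.0349).

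Only 1 ratio passed in parenchyma. The log2 ratio of miR-148a to miR-148b was 5.04 ± 0.30 in 12 milk replacer fed and 5.82 ± 0.40 in 3 control samples (difference -0.77, exact permutation p = 0.00879, adjusted p = 0.0264). With any 1 control left out it was -0.96 to -0.56 and did not pass (adjusted p = 0.0659 to 0.119), while the smallest p that 12 against 2 samples allow is 0.022. Beside this, the adipocyte-linked sum was 1081 to 16753 in milk replacer fed parenchyma and 86480, 84651 and 8843 in control replicates 1, 2 and 18. The immune cell sum was 2326 to 5817 in milk replacer fed parenchyma, and 4438, 4277 and 82856 in the same controls. The stromal sum was 278428 to 381062 in milk replacer fed and 553004 to 750404 in control parenchyma, with no overlap. The epithelial sums, given above, differed most. The share of these cell types in the members' values cannot be told apart from that of feeding.

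The feeding effects were also compared between tissues by interaction terms in 1 limma fit over all samples. The difference of milk replacer minus control for miR-148a was larger in liver than in parenchyma by 0.90 (SE 0.30, adjusted p = 0.0154), where 40.3% of all miRNAs passed. This fell to 0.55 (adjusted p = 0.175) without control parenchyma replicate 2 and to 0.33 (adjusted p = 0.291) on rescaled values. Against fat pad the same term was 0.77 (SE 0.28, adjusted p = 0.0732), where 11.3% passed. No other interaction of a member passed on the deposited scale, for either feeding contrast. On rescaled values that of miR-148b for milk replacer minus control, liver minus parenchyma, passed (-0.73, adjusted p = 0.0276, against -0.16 and adjusted p = 0.640 as deposited).

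**Figure D5:**
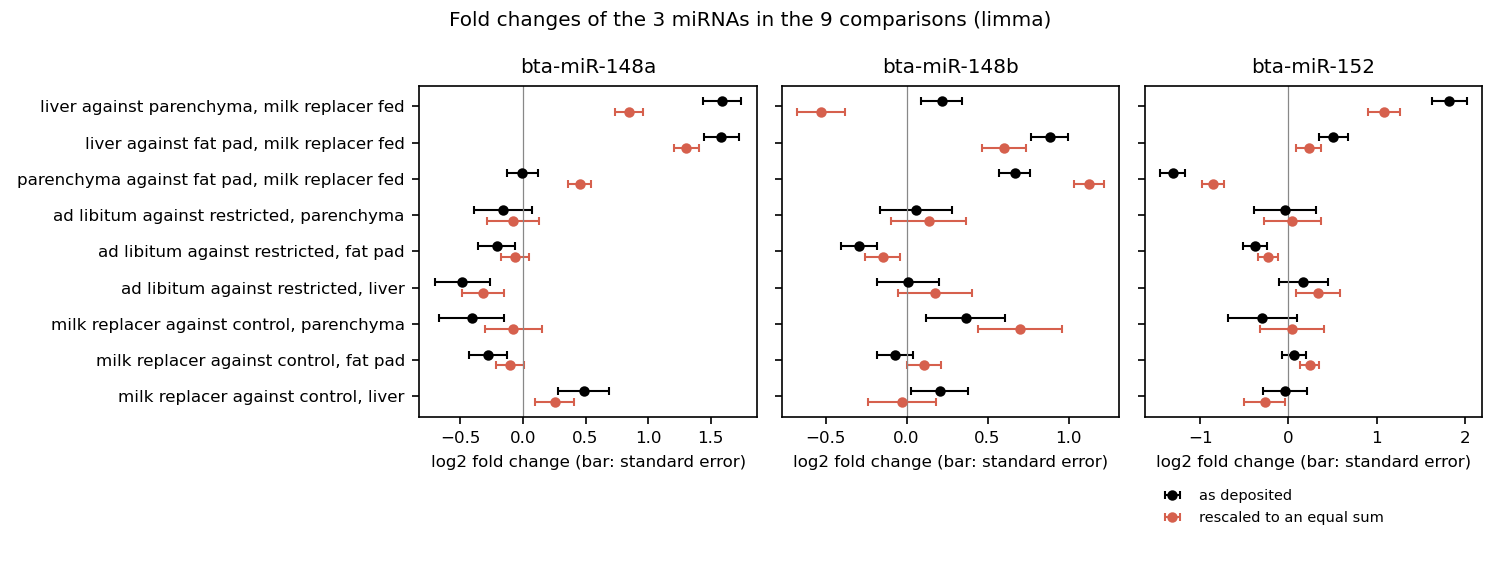
log2 fold changes of miR-148a, miR-148b and miR-152 (points, with the standard error) in the 3 comparisons between tissues and the 6 between feeding groups, for values as deposited and rescaled to an equal sum per sample. Fold changes of liver over the mammary tissues are positive for miR-148a on both scales, and its feeding comparisons lie closer to 0 than these. miR-148b in liver against parenchyma changes sign (0.22 and -0.53). Its change for milk replacer against control parenchyma (0.36 as deposited) is larger than that for liver against parenchyma.

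The miRNAs whose levels followed the members over the 48 samples were different for each member. For miR-148a they were miR-30a-5p (Pearson r = 0.893), miR-192 (0.889) and miR-101-1 (0.877), each highest in liver, and over the 9 group means miR-10225b (0.972). For miR-152 they were miR-185 (0.847), miR-22-3p (0.817) and the erythroid miR-451 (0.800), the last also leading over group means (0.972). For miR-148b they were miR-326 (0.813), miR-874 (0.807) and miR-10162-5p (0.783), and over group means the myeloid miR-223 (0.969). Among the members themselves r was 0.607 for miR-148a and miR-148b, 0.616 for miR-148a and miR-152, and 0.06 for miR-148b and miR-152. These are descriptions over 342 miRNAs, in which samples of a tissue share most of their differences.

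Other miRNAs known to repress DNA methyltransferases or linked to them in human and mouse cells (miR-29a, miR-29b, miR-29c, miR-126-3p, miR-143, miR-185 and miR-342) were placed beside the family. In liver against parenchyma 5 of 7 were higher and none lower (30.9% and 45.8% of all tested miRNAs), with a median log2 fold change of 1.37, against -0.39 over all tested miRNAs. miR-29b (2.08, adjusted p = 3.80e-09) and miR-185 (1.83, adjusted p = 4.65e-10) had the largest of these. In liver against fat pad 4 were higher and 1 lower (36.4% and 40.4% of all; median 0.39, against -0.20), with miR-29a at 2.09 and miR-126-3p at -0.84. In parenchyma against fat pad 2 were higher and 4 lower (49.7% and 32.7% of all; median -0.85, against 0.37), with miR-126-3p at -2.27 (adjusted p = 8.91e-16) and miR-29a at 0.97 (adjusted p = 1.41e-05). On rescaled values the counts were 4 higher and 1 lower of 6 tested in liver against parenchyma, 3 higher and 2 lower of 7 in liver against fat pad, and 2 higher and 3 lower of 6 in parenchyma against fat pad. miR-29c fell under the minimum mean where 6 were tested. Each miRNA given above with its own fold change kept its direction and its call, but others changed. In liver against parenchyma miR-29a no longer passed (0.38, adjusted p = 0.0934 by limma) and miR-342 was lower (-0.81, adjusted p = 0.000506). In liver against fat pad miR-143 no longer passed (0.10, adjusted p = 0.378) and miR-29c was lower (-1.13, adjusted p = 0.0203).

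Feeding moved few of them outside parenchyma. In milk replacer against control parenchyma 5 of 7 were lower (15.3% of all tested miRNAs; median -1.49, against 0.13 over all), including miR-29c (-2.69, adjusted p = 0.000172) and miR-126-3p (-2.05, adjusted p = 3.74e-06), beside the cell type markers given above. In milk replacer against control fat pad miR-126-3p (-0.47) and miR-143 (-0.54) were lower (3.65% of all). miR-29a was lower in ad libitum than in restricted fat pad (-0.69, adjusted p = 0.0166; 6.98% of all), and none passed in liver. On rescaled values 3 of 6 tested were lower in milk replacer than in control parenchyma, where miR-29c was not tested, and none of 7 in fat pad. The part of endothelial and stromal cells, which miR-126-3p and miR-143 mark, was not tested.

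miRNAs linked to cholesterol and lipid handling formed the other list, of which 7 of 8 names were matched. In liver against parenchyma 2 of 5 tested were higher, miR-122 (12.74) and miR-27b (1.10), and miR-130b was lower (-4.33), with a median of 0.26 against -0.39 over all tested miRNAs, of which 76.7% passed. In liver against fat pad 3 of 4 were higher, miR-122 (13.13), miR-128-1 (1.49) and miR-27b (0.65), with a median of 1.07 against -0.20 over all, of which 76.8% passed. In parenchyma against fat pad miR-130b (2.71) and miR-128-1 (adjusted p = 2.62e-10) were higher and miR-27b lower (-0.45), 3 of 5 tested, with a median of 0.39 against 0.37 over all, of which 82.4% passed. In milk replacer against control parenchyma miR-130b was higher (2.01, adjusted p = 0.000523), while miR-27a-3p (-0.74) and miR-27b (-0.52) were lower, 3 of 5 tested, with a median of -0.49 against 0.13 over all, of which 45.4% passed. None of this list passed in the other feeding comparisons. miR-130b was low in these fits, with a mean log2 value of 2.74 in liver against parenchyma and 3.55 in parenchyma against fat pad. Up to 5 reads can be listed as 0 and depth differed between tissues, so the size of its fold changes is uncertain. On rescaled values miR-130b fell under the minimum mean and was not tested in the comparisons with parenchyma. miR-27b then did not pass between parenchyma and fat pad, where miR-27a-3p was higher (0.32, adjusted p = 0.0182), and none of the 4 tested passed in milk replacer against control parenchyma. miR-128-1 was then lower in liver than in parenchyma (-0.75, adjusted p = 2.01e-05), as was miR-27a-3p (-0.48, adjusted p = 0.00256), and higher in ad libitum than in restricted fat pad (0.61, adjusted p = 0.0411).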

How the data were processed

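The authors sequenced small RNA libraries with ligated adaptors, amplified by PCR. Of the software, bcl2fastq, FastQC, Trim Galore and DESeq2 are listed in the submitters' processing notes, with no version. For the step that assigned reads to miRNAs, neither tool nor genome build was given in the sources used here. The deposited values are a score, that is, read counts scaled by the authors with a size factor of each library. Within a library every value was a whole multiple of 1 step (tolerance 0.01), and none above 0 was under 6 steps, so up to 5 reads can appear as 0. Summed steps served as estimated reads. The deposited columns of fold changes and p-values were not used.

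limma 3.58.1 (R 4.3.3) was run on log2(value + 1), a scale that understates changes of low miRNAs, with a variance trend and a minimum mean of 10 in the samples of a fit. The threshold was a Benjamini-Hochberg adjusted p of 0.05 over all miRNAs tested. Feeding fits held all 3 groups of a tissue. Shares and log2 ratios (27 tests each) were tested by two-sided permutation in Python 3.11.15 with scipy 1.17.1, exactly where a group had fewer than 10 samples and otherwise with 100000 resamples, whose smallest p is 2e-05. Fits were tested on simulated data. Named miRNAs are the members, the 5 most abundant per tissue, those most like each member (3 over 48 samples, 1 over 9 group means) and 2 lists. Members, lists and alternatives were chosen with earlier results of these data known.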

Additional observations from a re-analysis of the deposited data

Results flagged for a closer look

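In groups of 4 to 10 samples, 8 of 48 sets held a sample that stood far from the others of its group, where chance gives about 1 in 20. The value and the share of a member were counted as separate sets of the same samples. The sets are thus not independent, some samples count under both, and the number is no test against that rate. In liver, miR-148a was 1711147 in restricted replicate 8, against 691702 to 1051435 in the other 5. In control fat pad it was 460661 in replicate 2, against 299781 to 315026 in the others.

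For miR-148b, ad libitum liver replicate 15 had 15686 (others 7399 to 10453) and a share of 0.329% (others 0.144% to 0.180%). Restricted liver replicate 10 had 14896 (others 8368 to 10088) and a share of 0.295% (others 0.125% to 0.163%). For miR-152, ad libitum parenchyma replicate 7 had 14357 (others 4714 to 6790) and a share of 0.409% (others 0.152% to 0.184%).

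The difference of milk replacer minus control for miR-148a was larger in liver than in parenchyma by 0.90 on the log2 scale, by an interaction term in limma (adjusted p = 0.0154). The control parenchyma samples behind it held few epithelial miRNAs.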

How the results depend on the processing

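Of 1086 alternative values for 99 results on the members, 1007 kept their direction and their side of the threshold, 8 lost the call, 13 gained one and 58 changed sign. Of 574 alternative counts of miRNAs past the threshold, 517 stayed within 1.5 times. The cause of a change was not tested. Depth limits the low miRNAs, since up to 5 reads can be listed as 0.

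Rescaled to an equal sum, log2 fold changes of miR-148b became -0.53 for liver against parenchyma, and 0.70, 0.11 and -0.029 for milk replacer against control parenchyma, fat pad and liver. That of miR-148a became 0.45 for parenchyma against fat pad. Those of miR-152 became 0.23 for liver against fat pad, 0.041 for ad libitum against restricted parenchyma and 0.039 for milk replacer against control parenchyma. Interactions of milk replacer minus control became 0.33 (miR-148a), -0.73 (miR-148b, adjusted p = 0.0276 by limma) and -0.31 (miR-152) for liver minus parenchyma, -0.14 (miR-148b) for liver minus fat pad and 0.027 (miR-148a) for parenchyma minus fat pad. Those of ad libitum minus restricted became 0.040 (miR-148b, liver minus parenchyma) and -0.016 (miR-148a, parenchyma minus fat pad). The correlation of miR-148a with miR-152 became -0.38 in liver and 0.72 in fat pad, that of miR-152 with miR-148b -0.28 in parenchyma and 0.47 in fat pad, and that of miR-148a with miR-148b 0.34 in fat pad.

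With all feeding groups, miR-148b was 0.27 for liver against parenchyma (adjusted p = 0.0446 by limma). For parenchyma against fat pad miR-148a was 0.037 with all groups, 0.020 with ad libitum samples alone and 0.00020 with log2 reads as a covariate. miR-152 was 0.24 for liver against fat pad with restricted samples alone. For ad libitum against control miR-152 was -0.12 in fat pad and 0.045 in liver, and for restricted against control miR-148b was 0.077 in fat pad. Without miR-122 in the sum, share differences in percentage points were -0.0525 (miR-148b, liver against parenchyma) and 0.129 (miR-152, liver against fat pad). Without the 5 most abundant other miRNAs they were -0.0364 (miR-148b) and -0.137 (miR-152) for ad libitum against restricted fat pad, both past the threshold, and -0.00318 (miR-148b) for milk replacer against control liver.

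Leaving out 1 sample at a time, the log2 fold change of miR-148a ran from -0.055 to 0.033 for parenchyma against fat pad and from -0.75 to -0.067 for milk replacer against control parenchyma. That of miR-148b ran from -0.020 to 0.15, -0.35 to -0.23 and -0.13 to 0.13 for ad libitum against restricted parenchyma, fat pad and liver, and from -0.15 to 0.0021 for milk replacer against control fat pad. That of miR-152 ran from -0.28 to 0.043 and -0.48 to -0.30 for ad libitum against restricted parenchyma and fat pad, and from -0.98 to 0.22 and -0.16 to 0.13 for milk replacer against control parenchyma and liver. The remaining alternatives with samples left out were chosen after seeing the data. The interaction of milk replacer minus control, liver minus parenchyma, ran from 0.55 to 1.24 for miR-148a, -0.35 to 0.16 for miR-148b and -0.26 to 0.94 for miR-152. Share differences ran from -0.00513 to 0.0462 (miR-148b, ad libitum against restricted liver), -0.00279 to 0.0113 (miR-148b, milk replacer against control liver), -0.786 to 0.0474 (miR-148a, fat pad), and -3.40 to 1.08 (miR-148a) and -0.0944 to 0.0501 (miR-152) in parenchyma. Without parenchyma ad libitum replicate 7, ad libitum against restricted parenchyma gave -0.0222 for the share of miR-152, and log2 ratios of 0.057 (miR-148a to miR-152) and -0.38 (miR-152 to miR-148b). For milk replacer against control parenchyma the log2 ratio ran from -0.96 to -0.56 (miR-148a to miR-148b) and -0.63 to 0.57 (miR-148a to miR-152).

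Sample numbers recur across tissues but were not taken to pair the samples. Of 12 same-numbered pairs, 3 (liver with parenchyma), 8 (liver with fat pad) and 8 (parenchyma with fat pad) had deviations from their group means that correlated above 0.1, and 1, 3 and 3 correlated best with their own number. With the number as a replicate block, miR-148a gave 1.59 for liver against parenchyma (adjusted p = 1.52e-08 by limma) and miR-152 gave 0.51 for liver against fat pad (adjusted p = 0.0150), and the block changed no call of a member. It moved the interaction counts of milk replacer minus control, liver minus fat pad, to 1 higher (6 without it) and of ad libitum minus restricted, liver minus parenchyma, to 0 lower (1 without it). Feeding groups within a tissue share no number.

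Of the counts, higher calls were 59 rescaled for liver against parenchyma (106 as reported), 19 without a filter on low values for ad libitum against restricted fat pad (29), and lower calls were 68 rescaled for parenchyma against fat pad (110) and 33 rescaled for milk replacer against control parenchyma (52). The 1 lower call of ad libitum against restricted liver became 0 without a filter, rescaled and with the 2 feeding groups alone. For milk replacer against control fat pad, higher calls (22) were 13 at a mean of at least 50, 34 for ad libitum and 7 for restricted against control, and lower calls (11) were 5 rescaled, 33 and 6. In liver, higher calls (5) were 1 rescaled, 3 without a variance trend, 2 with log2 reads as a covariate and 1 for ad libitum against control, and lower calls (16) were 10 there. Interaction calls of milk replacer minus control were 27 higher for liver minus parenchyma (59) and 0 higher for liver minus fat pad (6) when rescaled, and the 1 lower call of ad libitum minus restricted, liver minus parenchyma, became 0. Leaving out 1 sample, they ran from 16 to 29 higher in ad libitum against restricted fat pad, 0 to 1 lower in liver, 14 to 26 higher and 5 to 21 lower in milk replacer against control fat pad, and 1 to 9 higher and 8 to 18 lower in liver.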
